A study of Mus musculus with 18 samples.

Results

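The 10 immediate early response genes Fos, Fosb, Fosl1, Jun, Junb, Atf3, Egr1, Ier2, Ier3 and Dusp1 were chosen by gene name from a table of 55335 genes measured by RNA-Seq in mouse small intestinal crypts. All 10 passed the filter on low counts and were among the 21349 genes tested. Their positions are given on mm10, as the whole annotated gene. The KO mice carried loxP-flanked Prmt1 (Prmt1 fl/fl) together with CreERT2, a tamoxifen-activated recombinase, under the villin promoter, which drives it in the intestinal epithelium. The WT mice were Prmt1 fl/fl littermates without the recombinase. Both genotypes were 8 to 12 weeks old and received tamoxifen at 2 mg per injection. Crypts were collected at day 2, after 2 injections, and at days 7 and 14, after 5 injections, counted from the first injection at day 0. There were 3 libraries, each from a separate mouse, in each of the 6 groups of genotype and day, 18 libraries in all. The sex of the mouse behind each library was not among the labels used here. Crypts were released with 20 mM EDTA for 40 min on ice and passed through a 70 µm strainer.

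Immediate early genes are the genes that cells transcribe first after a growth factor, stress or mechanical stimulus, from promoters that need no new protein synthesis. Mitogen-activated protein (MAP) kinases phosphorylate factors such as SRF with its ternary complex partners and CREB, which sit at these promoters, and the transcripts are made and lost again quickly. Fos and Jun proteins pair to form AP-1, a leucine zipper transcription factor. Atf3 and Egr1 encode further transcription factors of the response, Ier2 and Ier3 encode small response proteins, and Dusp1 encodes a phosphatase that switches MAP kinases off. In intestinal tissue these genes are known both for growth and repair signals and for the induction that follows cutting, chelation and shaking.

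The 250 bases before the RefSeq transcription start of 4 members are given here, from GRCm38.p6, because their windows hold matches to known response elements and they cover a Fos subunit, a Jun subunit, the ATF factor and the phosphatase. They are written 5′ to 3′ in the direction of transcription, with capitals marking matches to TGACGTCA (the cAMP response element), to its core TGACG, or to TATAAA, on either strand.
Fos, chr12:85473640-85473889 (plus strand): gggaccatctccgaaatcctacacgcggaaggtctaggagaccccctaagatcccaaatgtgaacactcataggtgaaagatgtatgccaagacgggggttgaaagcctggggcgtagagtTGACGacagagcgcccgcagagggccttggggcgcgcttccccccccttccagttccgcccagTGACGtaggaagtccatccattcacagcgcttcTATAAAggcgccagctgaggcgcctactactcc
Junb, chr8:84978749-84978998 (minus strand): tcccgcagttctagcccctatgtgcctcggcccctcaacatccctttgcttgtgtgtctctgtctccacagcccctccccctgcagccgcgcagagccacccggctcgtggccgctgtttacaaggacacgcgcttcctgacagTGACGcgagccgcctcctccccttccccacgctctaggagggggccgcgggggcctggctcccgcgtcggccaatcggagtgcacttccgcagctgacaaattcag
Atf3, chr1:191183334-191183583 (minus strand): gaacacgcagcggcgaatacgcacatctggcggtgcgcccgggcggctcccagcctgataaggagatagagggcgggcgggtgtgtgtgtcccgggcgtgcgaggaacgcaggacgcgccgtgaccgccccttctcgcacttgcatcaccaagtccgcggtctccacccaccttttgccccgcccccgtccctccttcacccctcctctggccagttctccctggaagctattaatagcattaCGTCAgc
Dusp1, chr17:26508473-26508722 (minus strand): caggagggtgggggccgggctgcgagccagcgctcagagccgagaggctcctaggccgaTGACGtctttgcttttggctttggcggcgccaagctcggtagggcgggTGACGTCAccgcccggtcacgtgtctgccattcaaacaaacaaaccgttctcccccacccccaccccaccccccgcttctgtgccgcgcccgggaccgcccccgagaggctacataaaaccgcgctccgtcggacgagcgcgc
Promoter windows of 7 members were searched, Fos, Fosb, Jun, Junb, Atf3, Ier3 and Dusp1. The core TGACG, which every full cAMP response element contains, was found in 5 of these 7 windows (Atf3, Fosb, Junb, Fos and Dusp1), and in 17.8% of all 32851 windows of the same length. Its matches lay from 129 to 125 and from 66 to 62 bases before the start of Fos, and from 106 to 102 bases before that of Junb. In Atf3 the match lay from 7 to 3 bases before the start. The full element TGACGTCA was found in 1 window, that of Dusp1, from 143 to 136 bases before the start, and in 1.55% of all windows. TATAAA was found in Fos, from 33 to 28 bases before the start, and in 12.4% of all windows. The serum response element core, the AP-1 element TGANTCA and the Egr1 element GCGTGGGCG were found in 0 of the 7 windows and in 1.47%, 6.75% and 0.536% of all windows. These are matches of letters in a short window and not measured binding sites. Sequence farther upstream and variants of these letters were not searched, so an absence here does not mean that a gene lacks the element.

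Total counts per library ranged from 12844642 to 31493484. Prmt1 averaged 14.4 ± 1.36 CPM (the count of a gene scaled to a common library size; SD, n = 3) in KO and 26.6 ± 0.520 CPM in WT on day 2, and it was lower in KO by the test on all 3 days, with log2 fold changes of -0.89, -0.59 and -0.72 and adjusted p of 0.0264, 0.00675 and 0.00329. The epithelial markers (8 of 8 above 0 in every library) summed to between 5808 and 11121 CPM. Markers of other cells were present at lower sums, namely immune cells at 181 to 1271 CPM, fibroblasts at 22.6 to 196 CPM, smooth muscle at 6.01 to 15.5 CPM and endothelium at 4.16 to 8.03 CPM, with Cnn1, Actg2, Cdh5 and Kdr under 1 CPM in every library. Markers of villus enterocytes, the cells beyond the crypt mouth, summed to between 3750 and 25929 CPM. In such bulk libraries more cells of a type cannot be told apart from more RNA per cell. The library KO day 7 replicate 1 stood apart, with the lowest sums of Paneth cell markers (1518 CPM) and of stem cell markers (517 CPM) of all libraries, so the calls of members and lists at day 7 are also given without it.

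Levels between members were compared per length, as RPKM (CPM divided by the length of the gene's exons in kilobases). Junb had the highest level, 21.2 RPKM over all libraries, and group means from 14.8 to 26.0 RPKM. Fos followed at 16.9 RPKM, Ier2 at 16.3 RPKM and Jun at 10.8 RPKM. Atf3 (2.99 RPKM), Ier3 (1.98 RPKM), Dusp1 (0.968 RPKM) and Egr1 (0.905 RPKM) formed a lower tier. Fosl1 and Fosb were lowest, at 0.300 and 0.286 RPKM. Fosl1 rested on 3 to 32 counts per library and Fosb on 6 to 82, against 213 to 1766 counts for Fos and 322 to 1649 for Junb. With the groups ordered by mean CPM for each member, 0 of the 5 neighbouring pairs of groups were free of overlap for 7 members, and 1 of 5 was for Atf3, Ier3 and Dusp1. The share of such pairs over all tested genes was not determined, so these counts do not set the members apart. The annotated exons of 4 members overlap a gene on the opposite strand, Ergic1 for Dusp1, Ccdc85b for Fosl1, Junos for Jun and Prdx2 for Junb, and since counting ignored strand and credited shared reads to both genes, reads of such pairs cannot be told apart there.

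**Figure D1:**
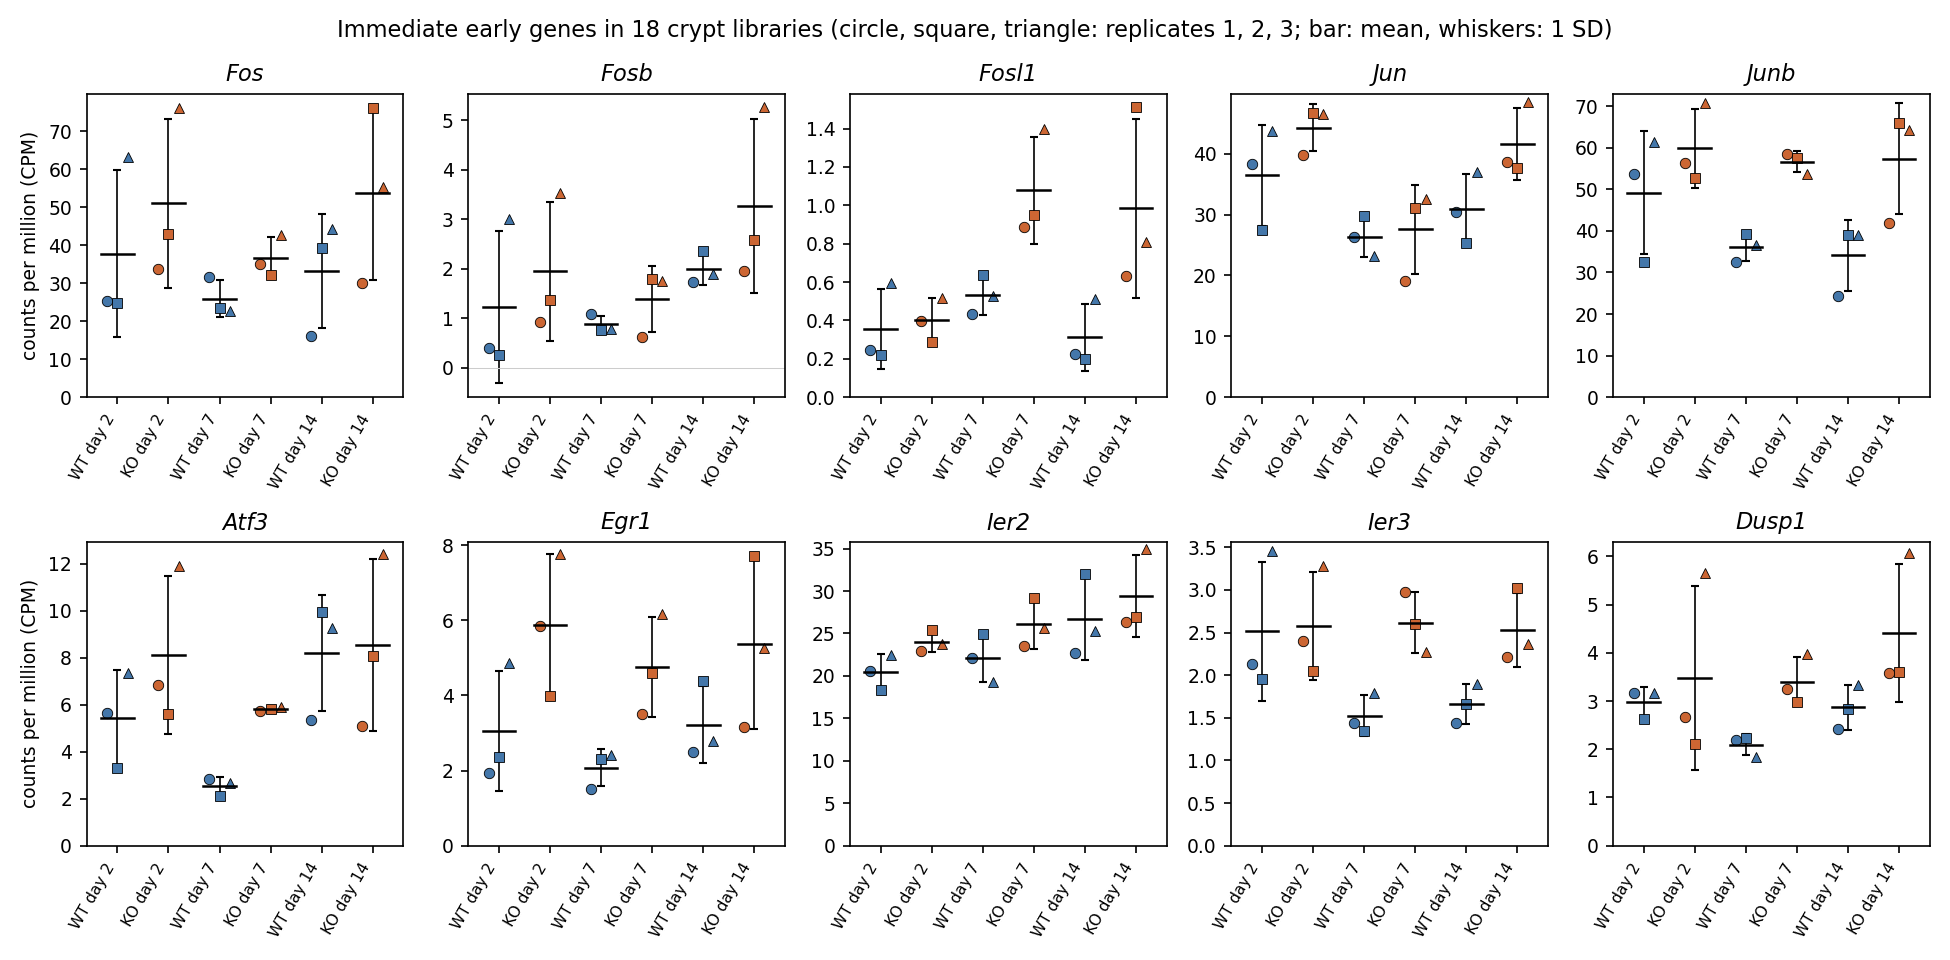
CPM of each of the 10 genes (vertical axes, separate linear scales) in the 3 WT (blue) and 3 KO (orange) libraries of each day, with the mean and 1 SD of each group. Triangles (replicate 3) stand above the other symbols in both day 2 groups for Fos, Fosb, Fosl1, Junb, Atf3, Egr1 and Ier3, and the KO and WT symbols of day 7 do not overlap for 7 genes.

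The question of the main comparison was whether the level of these genes differed between KO and WT crypts. KO removes PRMT1, an arginine methyltransferase, but only the KO mice carried the recombinase. An effect of PRMT1 loss therefore cannot be told apart from an effect of the active recombinase. At day 7, 4 of the 10 members were higher in KO than in WT at an adjusted p under 0.05 (Junb, Atf3, Egr1 and Ier3), where 7.11% of all tested genes were called higher. At day 14 the members called higher were 2 of 10 (Fosl1 and Junb), where 3.23% of all tested genes were called higher. With blocks of replicate number within each day, chosen after seeing the data and not named by the labels, 3 of 10 were called (Fos added). Genes called in all then numbered 2106 in place of 1690. At day 2 the count was 0 of 10, where 0.0281% were, and both edgeR and DESeq2 gave 0 members there and 1 (Egr1) at an unadjusted p under 0.05, where 3.33% of tested genes were by edgeR. No member was called lower on any day by edgeR, where 0.00468%, 10.2% and 4.69% of all tested genes were at days 2, 7 and 14. Without KO day 7 replicate 1, which stood apart, 1 of 10 was called at day 7, Egr1 (log2 fold change 1.40, adjusted p = 0.0353), while Junb (0.64, adjusted p = 0.111), Atf3 (1.21, adjusted p = 0.0607) and Ier3 (0.69, adjusted p = 0.151) kept their direction and missed the threshold. In that fit the genes called higher fell from 7.11% to 3.83% of all those tested. Leaving out KO replicate 3 left 2 members while the genes called in all rose from 3690 to 4117, and leaving out KO replicate 2 or any WT library of day 7 removed all 4 calls, with 2507 to 2770 genes called in all. Estimated log2 fold changes were above 0 for 10 of 10 members on each of the 3 days, against 49.1%, 51.6% and 50.2% of all tested genes, and leaving out single libraries turned the estimates of Fosb, Fosl1, Ier3 and Dusp1 at day 2, of Jun at day 7 and of Atf3 at day 14 below 0. The members' median log2 fold change was 0.28 at day 2, 0.67 at day 7 and 0.64 at day 14, beside medians over all tested genes of -0.0048, 0.016 and 0.0022. Members that share libraries and vary together are not independent of each other, so these counts carry no test.

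All 3 KO libraries lay above all 3 WT libraries for 1 of 10 members at day 2 (Ier2), where 4.30% of tested genes did so. At day 7 this held for 7 of 10 (Fos, Fosl1, Junb, Atf3, Egr1, Ier3 and Dusp1), where 15.9% of tested genes did so. At day 14 it held for 5 of 10 (Fosl1, Jun, Junb, Ier3 and Dusp1), where 12.4% did so. The reverse order, all KO libraries below all WT libraries, was found for 0 members on any day, where it was found for 3.86%, 17.7% and 14.1% of tested genes at days 2, 7 and 14.

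**Figure D2:**
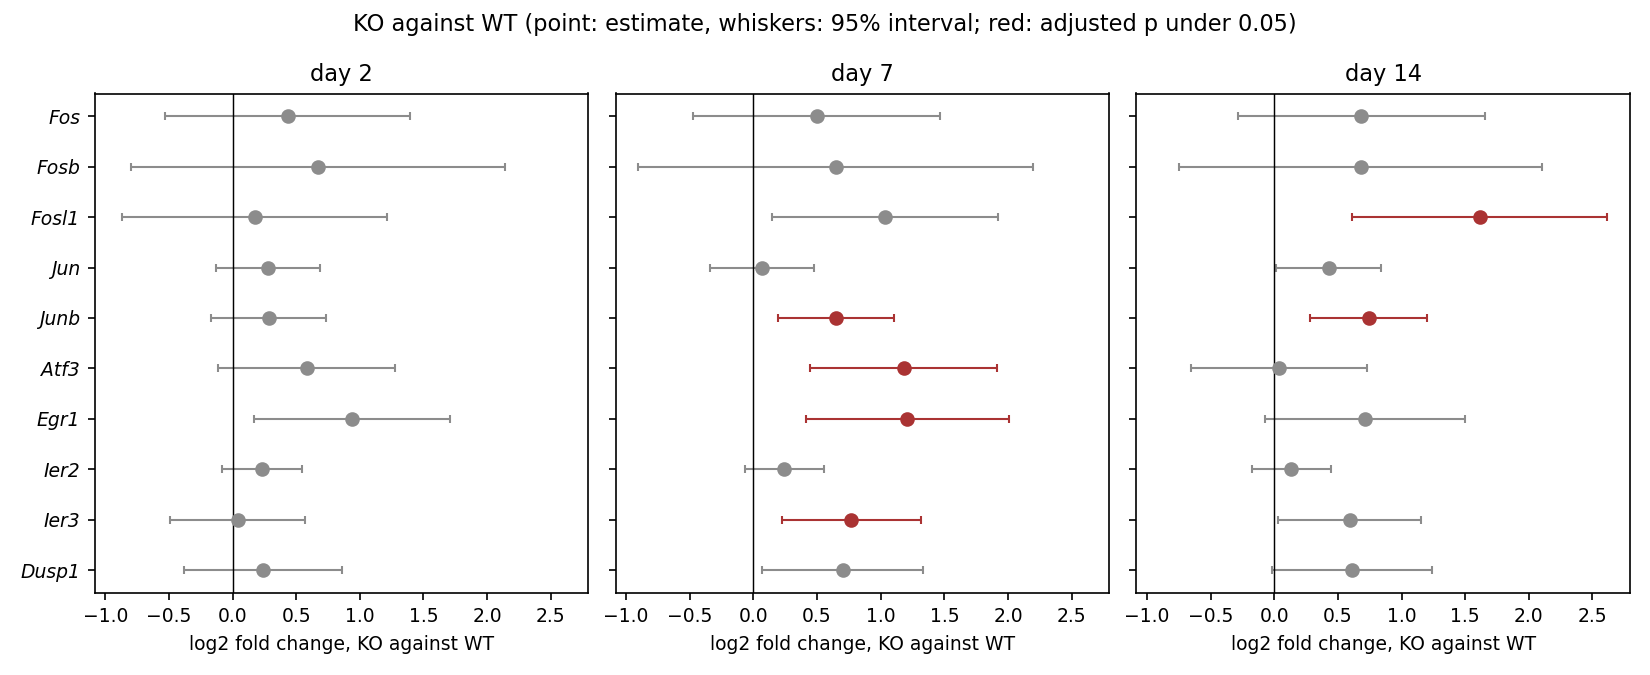
Log2 fold change of KO against WT (horizontal axes) for each gene at days 2, 7 and 14, as the estimate with its 95% interval, in red where the adjusted p was under 0.05. Every estimate lies right of 0, from 0.04 (Atf3 at day 14 and Ier3 at day 2) to 1.61 (Fosl1 at day 14), and the intervals of Fos and Fosb span 0 on all 3 days.

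Among the Fos subunits of AP-1, Fosl1 (ENSMUSG00000024912.6, chr19:5447547-5455946 on the plus strand), which encodes the FRA-1 protein, showed the largest fold change, while Fosb and Fos varied most between libraries of a group. Fosl1 measured 0.889, 0.948 and 1.40 CPM in KO and 0.432, 0.639 and 0.526 CPM in WT on day 7. At day 14 it measured 0.632, 1.51 and 0.809 CPM in KO and 0.227, 0.197 and 0.510 CPM in WT. The groups did not overlap on either day, and KO was higher by the test at day 14 (log2 fold change 1.61, SE 0.48, adjusted p = 0.0432) and not at day 7 (1.03, SE 0.42, adjusted p = 0.104). At day 2 both groups lay between 0.222 and 0.594 CPM and overlapped (log2 fold change 0.17, 95% interval -0.87 to 1.22). The effect of day 14 exceeded that of day 2 by 1.44, which did not pass the test of the difference (adjusted p = 0.426). The day 14 call held without KO replicate 1 or WT replicate 3 and was lost without KO replicate 2 or 3 or WT replicate 1 or 2, with adjusted p from 0.0250 to 0.214 over the 6 libraries left out. It was also lost with only the day 14 groups in the model (adjusted p = 0.0934).

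Fos (ENSMUSG00000021250.13, chr12:85473890-85477273 on the plus strand), the founding member of the family, measured 33.7, 42.9 and 76.2 CPM in KO at day 2 and 25.4, 24.8 and 63.1 CPM in WT. At day 7 it measured 35.1, 32.2 and 42.7 CPM in KO and 31.5, 23.5 and 22.6 CPM in WT. At day 14 it measured 30.0, 76.0 and 55.3 CPM in KO and 16.1, 39.2 and 44.2 CPM in WT. Replicate 3 was the high library of both day 2 groups and replicate 1 the low library of both day 14 groups, and the genotypes overlapped at days 2 and 14 but not at day 7. The log2 fold changes of KO against WT were 0.43 (SE 0.45), 0.50 (SE 0.45) and 0.68 (SE 0.45), with adjusted p of 0.999, 0.513 and 0.426. At day 14 the KO and WT libraries of the same number deviated together over all genes, weakly (r = 0.23, 0.18 and 0.16). The labels name no pairs. In a fit chosen after seeing the data, with replicate numbers as blocks within each day, Fos passed at day 14 (log2 fold change 0.72, adjusted p = 0.00991). This rests on that choice, and the planned model did not call Fos. Fosb (ENSMUSG00000003545.3, chr7:19302696-19310051 on the minus strand), the paralog that binds the same Jun partners, ranged from 0.267 to 5.26 CPM over all libraries, a 19.7-fold range. Its WT day 2 libraries alone ranged from 0.267 to 3.01 CPM, and its KO estimates of 0.67, 0.65 and 0.68 had 95% intervals that all spanned 0 (the widest, at day 7, from -0.91 to 2.20).

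Of the Jun subunits, Junb was higher in KO at days 7 and 14, and Jun was called on no day. Junb (ENSMUSG00000052837.6, chr8:84974484-84978718 on the minus strand) measured 58.5, 57.5 and 53.8 CPM in KO and 32.6, 39.3 and 36.6 CPM in WT on day 7. It measured 41.9, 65.9 and 64.2 CPM in KO and 24.3, 39.0 and 39.0 CPM in WT on day 14. KO stood above WT without overlap on both days, by a narrow margin at day 14, where the lowest KO library (41.9 CPM) and the lowest WT library were both replicate 1. The log2 fold changes were 0.65 (SE 0.22, adjusted p = 0.0461) at day 7 and 0.74 (SE 0.22, adjusted p = 0.0422) at day 14. At day 2 the groups overlapped at 52.7 to 70.7 CPM in KO and 32.6 to 61.3 CPM in WT (log2 fold change 0.28, adjusted p = 0.999). The day 7 call was lost without any of the 6 libraries (adjusted p 0.0502 to 0.153). At day 14 it held without KO replicate 1 or WT replicate 3 and was lost without KO replicate 2 or 3 or WT replicate 1 or 2 (adjusted p 0.0164 to 0.143), and it was also lost with only the day 14 groups in the model (adjusted p = 0.0985). In all of the fits with a library left out the fold change of Junb kept its direction, from 0.58 to 0.71 at day 7 and from 0.56 to 0.93 at day 14.

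Jun (ENSMUSG00000052684.4, chr4:95049034-95052222 on the minus strand), which encodes c-Jun, the strongest activator among the Jun proteins, measured 19.2, 31.1 and 32.5 CPM in KO and 26.3, 29.8 and 23.2 CPM in WT on day 7. KO replicate 1, the library with few Paneth and stem cell transcripts, was the lowest of all 18 libraries for Jun. The log2 fold changes of KO against WT were 0.28, 0.07 and 0.43 at days 2, 7 and 14, with adjusted p of 0.999, 0.864 and 0.209. At day 14 the groups did not overlap, with 37.7 to 48.4 CPM in KO and 25.4 to 36.9 CPM in WT.

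Atf3 (ENSMUSG00000026628.13, chr1:191170296-191218039 on the minus strand), a stress-induced factor of the ATF/CREB family that can pair with Jun proteins, showed the tightest separation at day 7. It measured 5.74, 5.83 and 5.89 CPM in KO and 2.84, 2.11 and 2.67 CPM in WT. All 3 KO libraries exceeded 2 times the mean of WT (2.54 ± 0.384 CPM, SD, n = 3), and KO was higher by the test (log2 fold change 1.18, SE 0.35, adjusted p = 0.0260). At day 14 the libraries measured 5.11, 8.07 and 12.4 CPM in KO and 5.36, 9.95 and 9.27 CPM in WT. These overlapped fully (log2 fold change 0.04, 95% interval -0.66 to 0.73). The effect at day 14 was smaller than that at day 7 by 1.14 on the log2 scale (95% interval of the difference -2.15 to -0.14), which had an unadjusted p of 0.0284 and an adjusted p of 0.999. The day 7 call held without KO replicate 3 and was lost without KO replicate 1 or 2 or any WT library (adjusted p 0.0421 to 0.0961).

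Egr1 (ENSMUSG00000038418.7, chr18:34859823-34864984 on the plus strand), a zinc finger factor and a standard readout of ERK signalling, had the largest estimate of the members at day 2 and at day 7. It measured 5.86, 3.99 and 7.77 CPM in KO and 1.93, 2.36 and 4.87 CPM in WT on day 2. At day 7 it measured 3.51, 4.60 and 6.16 CPM in KO and 1.51, 2.30 and 2.41 CPM in WT. WT replicate 3 made the groups overlap at day 2, and at day 7 they did not overlap. KO was higher by the test at day 7 (log2 fold change 1.21, SE 0.38, adjusted p = 0.0348). At day 2 the estimate was 0.94 (SE 0.37) with an unadjusted p of 0.0191 and an adjusted p of 0.999. At day 14 it was 0.71 (SE 0.37, adjusted p = 0.285), with 3.16 to 7.70 CPM in KO overlapping 2.49 to 4.38 CPM in WT. The day 7 call held without KO replicate 1 and was lost without KO replicate 2 or 3 or any WT library (adjusted p 0.0353 to 0.148).

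Ier3 (ENSMUSG00000003541.6, chr17:35821684-35822923 on the plus strand), also known as IEX-1, which acts on cell survival, measured 2.98, 2.60 and 2.27 CPM in KO and 1.44, 1.34 and 1.80 CPM in WT on day 7. The groups did not overlap, and KO was higher by the test (log2 fold change 0.77, SE 0.26, adjusted p = 0.0481). This call held without KO replicate 3 and was lost without KO replicate 1 or 2 or any WT library (adjusted p 0.0340 to 0.151), with no filter on low counts (adjusted p = 0.102) and with only the day 7 groups in the model (adjusted p = 0.0711). Ier3 was the member whose KO and WT means lay closest at day 2, 2.58 ± 0.632 and 2.51 ± 0.819 CPM (SD, n = 3; log2 fold change 0.04). At day 14 it did not overlap either, with 2.21 to 3.03 CPM in KO and 1.44 to 1.90 CPM in WT, and it did not pass the test (log2 fold change 0.59, adjusted p = 0.203). Ier2 (ENSMUSG00000053560.5, chr8:84661331-84662854 on the minus strand), a nuclear protein of the early response, was the steadiest member. It ranged from 18.3 to 34.9 CPM over all 18 libraries, a 1.91-fold range, and its estimates of 0.23, 0.24 and 0.13 had 95% intervals with upper bounds of 0.54, 0.55 and 0.45.

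Dusp1 (ENSMUSG00000024190.7, chr17:26505590-26562128 on the minus strand), the nuclear phosphatase of p38, JNK and ERK, measured 3.25, 2.98 and 3.97 CPM in KO and 2.19, 2.24 and 1.84 CPM in WT on day 7. KO lay above WT without overlap there and at day 14 (3.58 to 6.07 against 2.42 to 3.34 CPM), and the estimates of 0.70 (SE 0.30, adjusted p = 0.124) and 0.61 (SE 0.30, adjusted p = 0.251) did not pass the test. At day 2 the KO libraries, at 2.66, 2.11 and 5.65 CPM, lay on both sides of the WT libraries, at 3.16, 2.62 and 3.16 CPM.

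Marker sums of other cells are set here beside the calls of the members. At day 7, 7.11% of all tested genes were called higher and 17.3% in either direction, and at day 14 3.23% and 7.92%. The villus enterocyte markers summed to 12513 to 19932 CPM in KO and 7724 to 10878 CPM in WT on day 7, without overlap, with 2 of 10 genes called higher (Fabp1 and Fabp2, fatty acid binding proteins) and 1 lower (Lct, lactase). At day 14 they summed to 9965 to 19594 CPM in KO and 3750 to 10810 CPM in WT, with 1 of 10 called higher (Sis, sucrase-isomaltase). At day 2 the sums were 15437 to 19646 CPM in KO and 11499 to 25929 CPM in WT. Of the Paneth cell markers 8 of 8 were called lower at day 7, of the stem cell markers 6 of 8, and of the enteroendocrine markers 14 of 14 were called higher at days 7 and 14. At day 14 the Paneth cell markers summed to 5955 to 7822 CPM in KO and 9781 to 21986 CPM in WT, with 1 of 8 called lower (Ang4). The stem cell markers summed to 1681 to 1983 CPM in KO and 2270 to 2473 CPM in WT, with 2 of 8 called lower (Smoc2 and Cdca7), and neither list overlapped between the genotypes. Immune cell markers overlapped at day 7, at 261 to 607 CPM in KO and 181 to 389 CPM in WT, with 0 of 15 called, and fibroblast markers overlapped at 45.1 to 88.2 and 24.4 to 61.4 CPM, with 1 of 7 called higher (Vim). Of 4 tested endothelial markers 1 was called higher at day 7, Pecam1 (log2 fold change 1.29, adjusted p = 0.0188), also without KO day 7 replicate 1 (1.43, adjusted p = 0.0281). Only 2 of the 4 had estimates above 0 at day 7, with a list median of -0.086 and a lowest value of -0.87. The part of these cell type differences in the members' fold changes was not tested.

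Over time in WT crypts, no member was called by edgeR and Atf3 was called by DESeq2. From day 2 to day 7 edgeR called 0 of 10, where 0.553% of tested genes were called, with 3 at an unadjusted p under 0.05, where 22.4% of tested genes were. The largest of these changes was that of Atf3, -1.09 on the log2 scale (SE 0.35, adjusted p = 0.0945), which DESeq2 called, with 1544 genes called in all against 118 by edgeR. From day 2 to day 14 edgeR and DESeq2 called 0 of 10, where 1.61% were, with 3 at an unadjusted p under 0.05 in each, where edgeR had 4271 of the 21349 tested genes. DESeq2 gave Fosl1 no adjusted p in either comparison. In KO crypts, 1 of 10 was higher at day 7 than at day 2 and 1 lower, where 7.21% of tested genes were higher and 8.80% lower. Fosl1 rose (log2 fold change 1.39, SE 0.45, adjusted p = 0.0404), from 0.399, 0.285 and 0.518 CPM at day 2, while Jun fell by 0.68 on the log2 scale (SE 0.20, adjusted p = 0.0223), from 39.8, 46.6 and 46.5 CPM. The Fosl1 call was lost without any of the 6 libraries (adjusted p 0.0520 to 0.123). The Jun call was lost without KO day 2 replicate 2 or 3 or KO day 7 replicate 1 (adjusted p 0.0179 to 0.110), and without the last its fold change was -0.46. From day 2 to day 14 in KO both tools called 0 of 10, where 11.3% were called, with 1 at an unadjusted p under 0.05, where 27.7% of tested genes were by edgeR.

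The differences between the KO effects of 2 days were tested directly. Between days 7 and 2 edgeR and DESeq2 called 0 of 10 members, with 0 at an unadjusted p under 0.05, where 4.37% of tested genes were called. Between days 14 and 2 both called 0 of 10, with 0 at an unadjusted p under 0.05, where 1.04% were called. Between days 14 and 7 both called 0 of 10, where 0% were called, with 1 (Atf3) at an unadjusted p under 0.05, where 4.46% of tested genes were. The day on which a member was called was thus not shown to be the day of its largest effect.

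The spread between libraries of a group was wide for several members. The within-group SD of log2 CPM was 0.60 for Fos, where the 1000 tested genes nearest in mean level had a median of 0.18, and 99.6% of them varied less. Fosb had an SD of 0.91, above 98.4% of the genes near its level. Atf3 (SD 0.47), Junb (0.31) and Egr1 (0.51) lay above 92.8%, 92.8% and 91.9% of theirs. Jun (0.28) lay above 86.1% and Dusp1 (0.38) above 68.6%. Ier2 (0.18, above 51.1%), Fosl1 (0.47, above 41.1%) and Ier3 (0.28, above 22.5%) were ordinary for their level. The median percentile of the 10 members was 89.0 among genes of like level and 73.9 among all tested genes. For Fos, 67.1% of the variance over the 18 libraries lay within groups, where the median over tested genes was 51.2%. For Junb it was 37.9% and for Fosl1 28.6%.

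**Figure D3:**
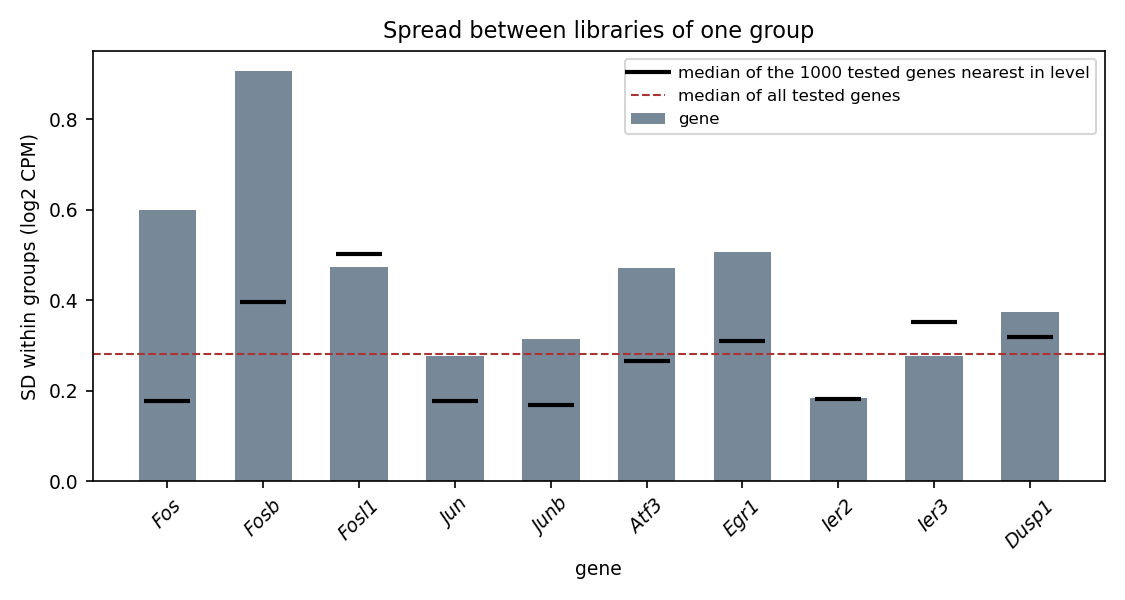
SD of log2 CPM within groups (bars, from 0) for each gene, the median SD of the 1000 tested genes nearest in level (black marks) and of all tested genes (dashed line, 0.28). Fos, Fosb, Jun, Junb, Atf3 and Egr1 rise well above their marks, Ier2 and Dusp1 lie close to theirs, and Fosl1 and Ier3 lie below theirs.

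The members tended to be high or low in the same libraries. WT day 2 replicate 3 lay above its group mean for 10 of 10 members (median deviation 0.50 on the log2 scale) and KO day 2 replicate 3 for 9 of 10 (0.41). Replicate 1 lay below the group mean for 10 of 10 members in both KO day 14 (median -0.45) and WT day 14 (-0.24), and WT day 2 replicate 2 did so for 10 of 10 as well (-0.40). At day 7 no library moved the whole set, with 2 to 7 members above the group mean in the 6 libraries and medians from -0.10 to 0.23. WT day 2 replicate 3 had the highest total count of all libraries (31493484) and WT day 14 replicate 1 the lowest (12844642), while KO day 14 replicate 1 was the deepest of its group (19982869).

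**Figure D4:**
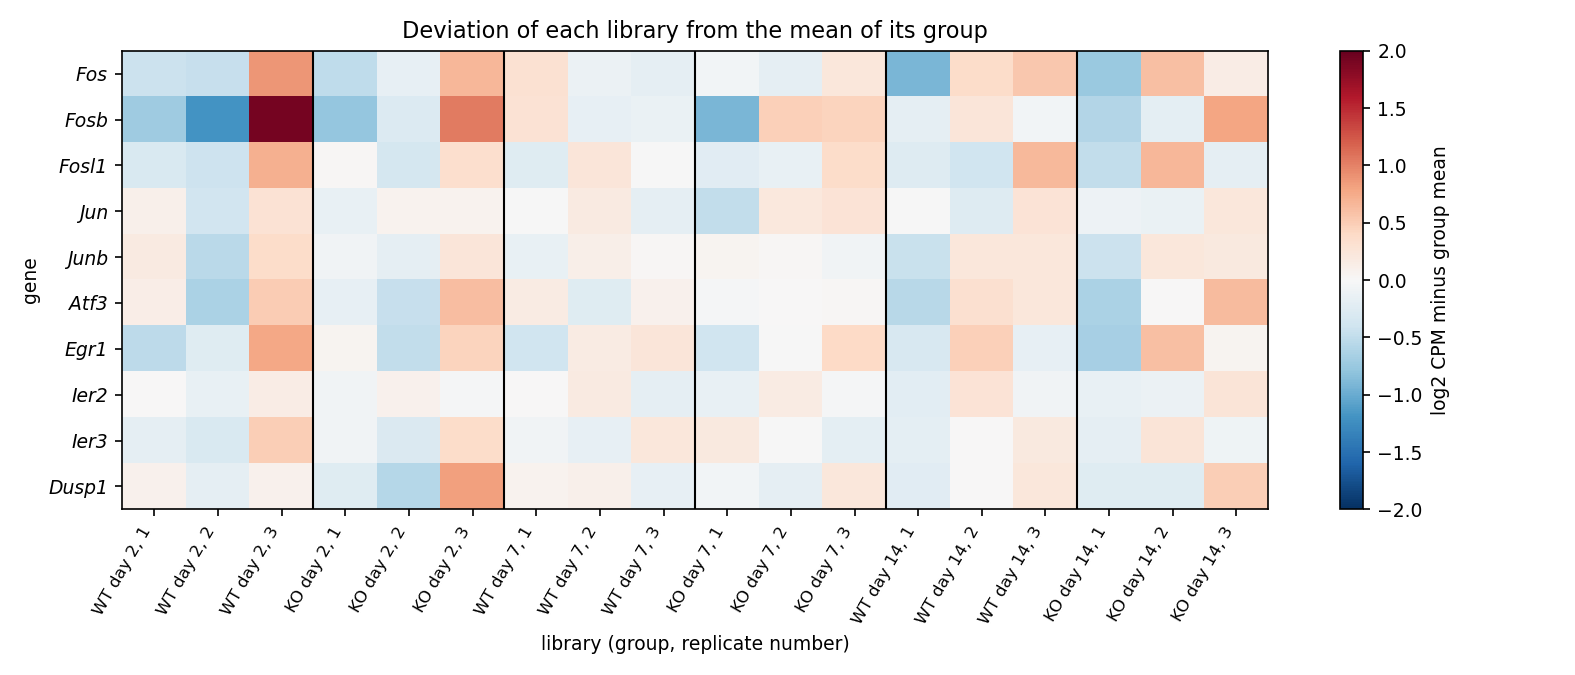
Log2 CPM of each gene minus the mean of its group (colour, red above and blue below) in the 18 libraries, in order of day and genotype with lines between groups. Columns WT day 2 replicate 3 and KO day 2 replicate 3 are mostly red, and both day 14 replicate 1 columns are blue or, near 0, white.

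Pairs of members were compared by the correlation of these deviations over the 18 libraries. Pearson's r was above 0 for 44 of 45 pairs with a median of 0.54, beside a median of 0.001 over all pairs of tested genes. Junb and Atf3 had the highest value (r = 0.85, exact permutation p = 0.00780, adjusted p = 0.0722; Spearman's rho = 0.78, exact permutation p = 0.0111, adjusted p = 0.0851), and r was 0.79 without the 2 libraries farthest from the median of Junb. Fos with Atf3 (r = 0.78, exact permutation p = 0.0122) and Fos with Junb (r = 0.77, exact permutation p = 0.0128) followed, with the same adjusted p of 0.0722. By Pearson's r, 21 of 45 pairs had an exact permutation p under 0.05 and 0 passed after adjustment over the 45 pairs. By Spearman's rho 1 pair passed, Fosb with Atf3 (rho = 0.74, exact permutation p = 0.000429, adjusted p = 0.0193). These permutations treat the libraries of a group as exchangeable and take no account of the pairs of replicate numbers at day 14. Ier2 and Ier3, which share a name and not a family, were unrelated here (r = -0.01, exact permutation p = 0.968). By its median r with the other 9 members, Fos was the most central (0.69) and Jun the least (0.37).

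Of 12019 other genes with a mean of at least 5 CPM, those whose deviations were most like the mean of the members' scaled deviations over the 18 libraries were Lhfpl2 (r = 0.93), Rhob (0.92), Entpd2 (0.91), Sp5 (0.90) and Amn (0.90). Rhob, a small GTPase, is itself a known immediate early gene and was on the list of such genes used here, and the others were on none of the lists. Amn encodes amnionless, a component of the cobalamin receptor of enterocytes. These 5 were selected for their likeness, so their r carries no test. Between genotypes these genes differed from one to the next. Entpd2 was lower in KO at day 7 (log2 fold change -1.05, adjusted p = 0.00160) and at day 14 (-0.96, adjusted p = 0.00724), while at days 2, 7 and 14 Lhfpl2 was at 0.40, 0.01 and 0.36 and Rhob at 0.22, 0.19 and 0.29, with no call for either. On the same days Sp5 was at -0.06, -0.74 and -0.44 and Amn at 0.24, -0.24 and 0.04, also with no call. Whether their genotype differences were unlike those of the members was not tested.

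The deviations of the members were also set beside cell type marker sums, a heat shock list, the mitochondrial share of counts and the total count, 120 relations in all and chosen after the data had been seen. The sum of villus enterocyte markers had r above 0 with 10 of 10 members (median 0.50), as had fibroblast markers (median 0.49) and enteroendocrine markers (median 0.31), and epithelial markers had r above 0 with 9 of 10 (median 0.49). The villus value was highest for Junb (r = 0.84, exact permutation p = 0.00407, adjusted p = 0.244; rho = 0.78, exact permutation p = 0.00298, adjusted p = 0.179) and Fos (r = 0.78, exact permutation p = 0.00628, adjusted p = 0.251; rho = 0.73, exact permutation p = 0.00772, adjusted p = 0.270). Without the 2 libraries farthest from the median of the marker sum, r was 0.73 for Junb and 0.69 for Fos. The smallest p was that of Junb with epithelial markers (r = 0.74, exact permutation p = 0.00214, adjusted p = 0.244; rho = 0.76, exact permutation p = 0.00144, adjusted p = 0.172), and r was 0.68 without 2 libraries chosen in the same way. None of the 120 relations passed after adjustment, by r or by rho. The total count had r of 0.61 with Fos (exact permutation p = 0.0408, adjusted p = 0.426) and a median of 0.39 over the members. Heat shock genes, the other response known from tissue dissociation, had a median r of 0.04 and ranged from -0.28 to 0.37, and the mitochondrial share had a median of -0.22. Immune cell markers had a median of 0.12.

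**Figure D5:**
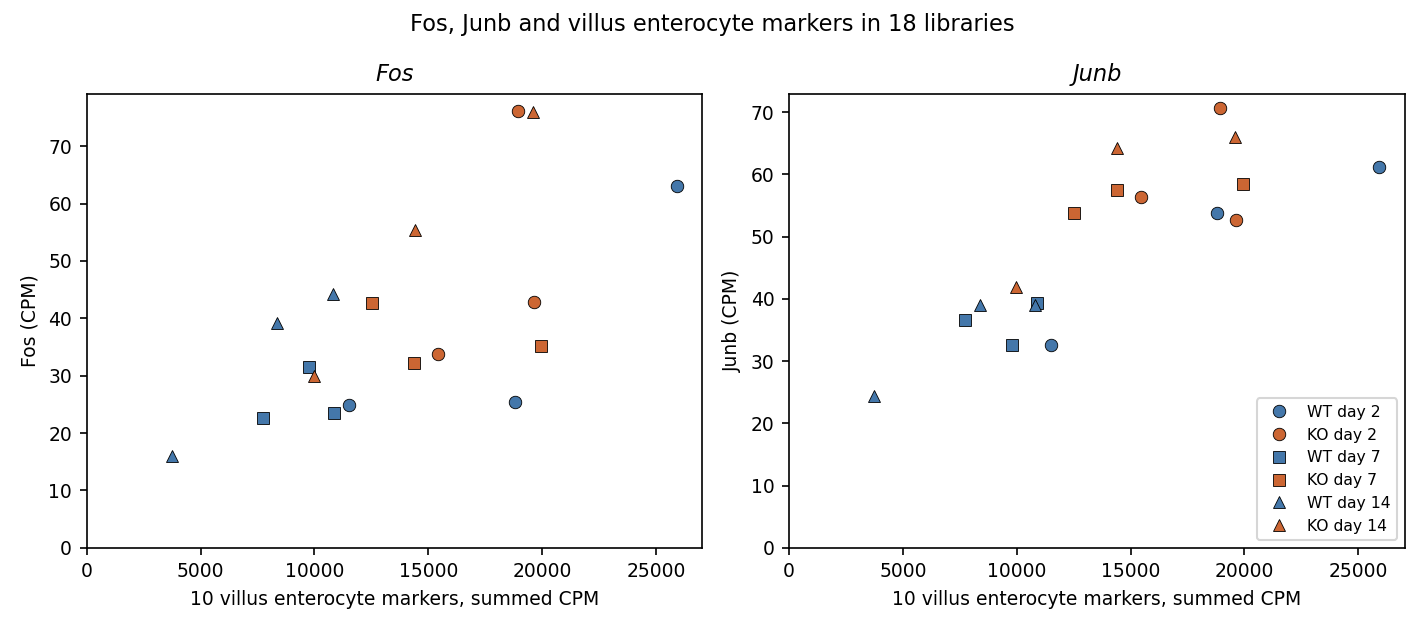
CPM of Fos and Junb (vertical axes) against the summed CPM of 10 villus enterocyte markers (horizontal axes) in the 18 libraries, by genotype (WT blue, KO orange) and day (circle 2, square 7, triangle 14). Both genes are lowest in the library with the lowest marker sum (3750 CPM, WT day 14 replicate 1), and in the day 7 squares the KO libraries lie to the right of and above the WT libraries.

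The genes upstream of the members include growth factor ligands and their receptors. Of 15 tested ligands and receptors, 3 were higher and 3 lower in KO at day 7, and 2 were higher and 1 lower at day 14, where 17.3% and 7.92% of all tested genes were called in either direction. Areg, which encodes amphiregulin, was higher in KO on both days, by 3.96 on the log2 scale (SE 0.43, adjusted p = 1.63e-05) at day 7 and by 1.82 (SE 0.42, adjusted p = 0.0118) at day 14. From day 2 to day 7 it changed by -2.04 in WT (adjusted p = 0.0454) and by 2.07 in KO (adjusted p = 0.00173). Ereg, which encodes epiregulin, was higher at day 7 (2.26, adjusted p = 0.00264) and Nrg1, the neuregulin ligand of ErbB3 and ErbB4, at day 14 (2.25, adjusted p = 0.00246). The insulin-like growth factor receptor gene Igf1r was lower on both days (-1.20 and -0.74), and Egf was lower at day 7 (-1.02, adjusted p = 0.00122). Also called at day 7 were Btc, higher (0.74), and the EGF receptor gene Egfr, lower (-0.43). At day 2, 0 of the 15 were called. The list median at day 7 was -0.13, so the list as a whole did not move one way.

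Kinases and nuclear regulators act between receptor and promoter. Of 20 genes of the ERK, JNK and p38 cascades, 1 was higher and 2 lower at day 7 (Map2k3 at 0.50, Map2k6 at -0.79 and Map2k2 at -0.56), beside 17.3% of all tested genes in either direction, and 0 were called at days 2 and 14. Of 14 SRF, ternary complex factor and CREB regulators, 1 was higher (Atf1, 0.38) and 1 lower (Mrtfb, -0.34) at day 7, with 0 at days 2 and 14. At day 14, 7.92% of all tested genes were called in either direction. These are transcript levels and say nothing of phosphorylation.

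Partners of the members at AP-1 sites were higher in 5 of 10 tested cases at day 7 and in 1 at day 14, where 7.11% and 3.23% of all tested genes were higher. Jdp2, a leucine zipper partner of Jun that represses AP-1 targets, had log2 fold changes of 2.32 (adjusted p = 0.000212) and 1.23 (adjusted p = 0.0400). Batf2 (0.87), Maff (0.55) and Mafg (0.54) were also higher at day 7, as was Atf4 (0.53, adjusted p = 0.00715), the integrated stress response factor. The list median was 0.48 at day 7. Of 13 ATF4 targets beside Atf3, 4 were higher at day 7 (Trib3 at 1.28, Phgdh at 0.90, Sesn2 at 0.80 and Ddit3 at 0.56) and 0 at days 2 and 14, beside the same shares of all tested genes, with medians of 0.30, 0.56 and 0.18 at days 2, 7 and 14.

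Feedback inhibitors of MAP kinase signalling, the family to which Dusp1 belongs by function, were higher in 6 of 17 cases at day 7 and in 1 at day 14, with 0 lower, where 7.11% and 3.23% of all tested genes were higher. The largest at day 7 were Spry4 (log2 fold change 1.76, adjusted p = 0.00226), Dusp14 (1.36, adjusted p = 0.0307), Spred3 (1.14, adjusted p = 0.0195) and Dusp6 (1.09, adjusted p = 0.0298), an ERK phosphatase. Dusp4 was higher on both days, at 0.95 and 0.97. The list median was 0.49 at day 7 and 0.35 at day 14.

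Of 49 other immediate early genes, 44 were tested, of which 9 were higher and 1 lower at day 7, where 7.11% of all tested genes were higher, and 2 were higher at day 14, where 3.23% were. The largest at day 7 were the polo-like kinase genes Plk2 (log2 fold change 1.83, adjusted p = 6.78e-05) and Plk3 (1.77, adjusted p = 0.000151), followed by the matricellular gene Ccn1 (1.40, adjusted p = 0.0193) and the nuclear receptor gene Nr4a1 (1.34, adjusted p = 0.00898). Pim3 was the gene that fell (-0.59). At day 14 Plk3 (1.51, adjusted p = 0.00157) and Ifrd1 (0.71, adjusted p = 0.0455) were higher. At day 2, 0 of 44 were called. The list's median log2 fold change was 0.14, 0.29 and 0.28 at days 2, 7 and 14, lower than the members' own. In WT, 0 of 44 were called from day 2 to day 7, where 0.553% of all tested genes were. From day 2 to day 14 in WT 1 was lower, where 0.871% of all tested genes were. Maff stood both on this list and among the AP-1 partners.

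Without KO day 7 replicate 1, 45 of the 69 genes called on any list at day 7 were called again (65.2%), where 54.4% of all 3690 genes called at day 7 were, and all 69 kept their direction. The 69 genes pool the cell type markers with the other lists, so this share does not describe the response lists alone. Areg (3.65, adjusted p = 4.48e-05), Ereg, Igf1r and Egf among the ligands and receptors, and Jdp2 (2.19, adjusted p = 0.00128), Batf2, Mafg and Atf4 among the AP-1 partners, were called again. Of the other immediate early genes, 4 of the 9 called higher were called again (Plk2, Plk3, Nr4a1 and Ifrd1). Of the feedback inhibitors 2 of 6 were (Spry4, adjusted p = 0.0135, and Dusp4). Sesn2 and Ddit3 of the ATF4 targets and Map2k6 of the kinases were called again. Trib3, Phgdh, Map2k2, Map2k3, Atf1, Mrtfb, Dusp14, Spred3, Dusp6, Dusp10, Ccn1, Id1, Ier5, Gadd45b, Pim3 and Maff were not. Neither were Btc, Egfr and the heat shock gene Bag3. The villus enterocyte markers Fabp1 (1.25, adjusted p = 0.0734), Fabp2 and Lct were not called in that fit, while 6 of 8 Paneth cell markers and 6 of 8 stem cell markers were lower and 14 of 14 enteroendocrine markers higher. Of all genes tested in that fit, 9.43% were called in either direction and 3.83% higher.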

How the data were processed

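Small intestinal crypts of 18 mice in 6 groups were measured by RNA-Seq. The authors deposited 1 table of raw counts per gene, from 100 bp paired reads of ribosome-depleted total RNA aligned to mm10 with STAR 2.7.3 and counted with featureCounts 1.6.4. Per the file header, GENCODE M23 was used (the methods name M26), fragments were counted without strand and credited to every gene they overlapped, and multi-mapped reads were not counted. 0 columns were left unused. Gene positions were not moved between builds. Reads behind a count carry no molecular identifiers.

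The 20 genes that the study gave as differing between male and female mice were left out before normalization. Genes were filtered with filterByExpr and tested with edgeR 4.0.16 (TMM, robust quasi-likelihood, R 4.3.3) in 1 model of 6 group means with 12 residual degrees of freedom, with Benjamini-Hochberg adjustment over 21349 genes and a threshold of 0.05. SE is the log2 fold change divided by the root of F. Log2 CPM used a prior count of 2. Correlations used all 46656 permutations of libraries within groups, two-sided. DESeq2 1.42.0 was an alternative. Figures used matplotlib 3.10.9. The edgeR and permutation steps were tested on simulated data.

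The members and the 17 gene lists were chosen with earlier results of these data known. The genes named are the 10 members, Prmt1, the called list members of largest fold change (4 at most a list and comparison, and those beyond that rule chosen after their values were seen) and the 5 genes of like pattern. Sequences are RefSeq windows of GRCm38.p6. Member windows on chromosome 18, where Egr1 lies, were left out, and none was used for Ier2 and Fosl1. Replicate numbers paired KO and WT libraries at day 14 by their deviations over all tested genes (r = 0.23, 0.18 and 0.16), and the labels do not say that numbers mark a shared litter or day. The labels give no batch. The spread between 3 mice per group limits the precision, and single outlying libraries were not tested.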

Additional observations from a re-analysis of the deposited data

How the results depend on the processing

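Without any library left out, 214 of 221 fold changes of members kept direction and side of the threshold over the alternatives (DESeq2's test or size factors, no filter on low counts, the male and female genes kept, the compared groups alone and replicate blocks). Members called at day 14 fell from 2 to 0 with only the compared groups in the model (fewer libraries to estimate the spread), and WT day 7 against day 2 had 1 (Atf3) in DESeq2, which called 1544 genes there against 118 in edgeR. The replicate block with numbers shared by all days left 4 members at day 7 and 2 at day 14 and turned Atf3 at day 14 to -0.0051. The replicate block within each day, chosen after seeing the data, gave 0, 5 and 3 members at days 2, 7 and 14, adding Fos on both later days, while all genes called went from 7 to 8, 3690 to 4225 and 1690 to 2106. Numbers at days 2 and 7 did not deviate together in every pair (r from 0.05 to 0.38 and from -0.16 to 0.21), while at day 14 each KO library correlated best with its own number. With only the compared groups, Fosl1 did not pass the filter for day 2 against WT.

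Leaving out each library in turn gave 0 to 2 members at day 7, 0 to 2 at day 14, 0 to 1 for WT day 7 against day 2, 0 to 1 for WT day 14 against day 2, 0 to 1 for KO day 7 against day 2 and 0 to 4 pairs that vary together. Genes called in all then numbered 2051 to 4117 at day 7 and 1041 to 1334 at day 14. Fold changes that changed sign ranged from -0.12 to 2.53 for Fosb, -0.086 to 0.77 for Fosl1, -0.18 to 0.33 for Ier3 and -0.32 to 0.50 for Dusp1 at day 2, from -0.039 to 0.29 for Jun at day 7 and from -0.32 to 0.31 for Atf3 at day 14. The cause was not tested. The median percentile of the spread ranged from 66.6 to 76.3 among all genes.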

Other observations

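Heat shock genes are another group that tissue dissociation can induce. Their 12 genes summed to 2020 to 2399 CPM in KO and 1892 to 2124 CPM in WT on day 2, to 1453 to 1907 CPM in KO and 1297 to 1789 CPM in WT on day 7, and to 1331 to 1433 CPM in KO and 1219 to 1659 CPM in WT on day 14. In KO crypts 4 of 12 were lower and 1 higher at day 14 than at day 2, where 11.3% of all tested genes were called, and in WT 1 was lower, where 1.61% were. From day 2 to day 7, 2 were higher and 3 lower in KO, where 7.21% and 8.80% of all tested genes were, and 1 was lower in WT, where 0.553% were called. Between genotypes 1 of 12 was called higher, where 7.11% of all tested genes were, Bag3, a co-chaperone of Hsp70, at day 7 (log2 fold change 0.45, adjusted p = 0.0172), and this call was lost without KO day 7 replicate 1 (0.38, adjusted p = 0.0802). Their median log2 fold changes of KO against WT were 0.12, 0.15 and -0.13 at days 2, 7 and 14, beside 0.28, 0.67 and 0.64 for the members. Over time their median beside that of the members was -0.35 and -0.50 from day 2 to day 7 in WT, -0.09 and -0.11 from day 2 to day 14 in WT, -0.23 and -0.20 from day 2 to day 7 in KO and -0.52 and 0.06 from day 2 to day 14 in KO, and the differences were not tested.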
